A study of Mus musculus with 20 samples.

Results

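The mammalian circadian clock was followed through 10 genes, Per1, Per2, Per3, Cry1, Cry2, Arntl, Clock, Nr1d1, Nr1d2 and Dbp, in the livers of mouse fetuses whose dams had been fasted. The genes were chosen by name, as the core feedback loop and one of its direct outputs, with earlier results of these data known. They are 10 of the 45802 gene entries in the deposited table. All 10 had a value in each of the 20 libraries, and all 10 reached the minimum level for testing. Poly(A) RNA was sequenced from 1 fetal liver per library at stage E17.5, with 4 fetuses in each of 5 groups and 2 females and 2 males in each group. All animals were labelled C57BL/6, and all dams had been fasted for 24 h, so there was no fed group.

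KODam_KOFetus livers came from Ppara knockout fetuses of Ppara knockout dams. KODam_HetFetus livers came from Ppara heterozygous fetuses of Ppara knockout dams. HetDam_HetFetus livers came from heterozygous fetuses of heterozygous dams, so every fetus and dam of these 3 groups carried a disrupted Ppara allele. Cpt2LKODam_FloxFetus livers came from Cpt2f/f fetuses of Cpt2f/f dams that carried Albumin-Cre, which deletes Cpt2 in the hepatocytes of the dam. FloxDam_FloxFetus livers came from Cpt2f/f fetuses of Cpt2f/f dams without Cre. The series' design text and the titles of the Cpt2 groups say wild type for fetuses and dams whose genotype labels read heterozygous or Cpt2f/f. A shared number in the sample descriptions marks replicates 1 and 2 of KODam_KOFetus, replicates 1 and 2 of KODam_HetFetus and replicates 3 and 4 of FloxDam_FloxFetus as presumed littermates. No presumed litter spans 2 groups, so the genotype of a dam and the litter she carried cannot be told apart. The hour of collection is not given in the sources used here, so each level is a single reading with no known place on a daily cycle.

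In the clock loop, the CLOCK and ARNTL (BMAL1) proteins bind as a pair to E-box sequences and switch on the Per and Cry genes, Nr1d1, Nr1d2 and Dbp. The PER and CRY proteins return to the nucleus and repress that pair, while the nuclear receptors NR1D1 and NR1D2 (REV-ERB alpha and beta) repress Arntl. DBP binds D-box sequences, as do its relatives TEF and HLF. In adult mouse liver the loop times fatty acid, bile acid and glucose metabolism to feeding, glucocorticoids can induce Per1 directly, and PPARA is both a rhythmic gene and a regulator of Arntl. In fetal rodent liver, daily rhythms of these genes are known to be weak or absent before birth.

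The values are on the log2 scale of the deposited table, in which every library has identical quantiles. What was logged is not stated, so levels are compared between groups and not between genes. In RNA from whole livers, fewer cells of a type and less RNA per cell cannot be told apart. All 10 hepatocyte markers were expressed, with summed linear levels of 59858 to 114916 over the 20 libraries, and all 10 erythroid markers were too. Ppara averaged 2.26 ± 0.27 in KODam_KOFetus, 2.56 ± 0.68 in KODam_HetFetus and 3.13 ± 0.28 in HetDam_HetFetus livers (log2, SD, n = 4 each). Its level therefore did not set the fetuses labelled knockout apart from the heterozygous fetuses of knockout dams (difference -0.30 ± 0.26, SE; limma adjusted p = 0.682), and which exons the knockout removes is not given in the sources used here. Against HetDam_HetFetus livers, Ppara was lower in KODam_KOFetus (-0.87 ± 0.26; limma adjusted p = 0.0237) and not called in KODam_HetFetus (-0.56 ± 0.26; 0.0971). Cpt2 was deleted in the dam only, so its fetal level (3.90 ± 0.05 in Cpt2LKODam_FloxFetus and 4.00 ± 0.31 in FloxDam_FloxFetus livers) does not check the Cpt2 labels. In KODam_KOFetus livers Cpt2 was lower than in KODam_HetFetus (-0.70 ± 0.16; limma adjusted p = 0.0465) and HetDam_HetFetus livers (-0.55 ± 0.16; 0.0206). Single libraries carried transcripts of neighbouring tissues. Skeletal muscle markers summed to 271 in KODam_KOFetus replicate 2 and 189 in HetDam_HetFetus replicate 4, against at most 21.5 elsewhere. Stomach and intestine markers summed to 104 in HetDam_HetFetus replicate 1, and exocrine pancreas markers to 377 in Cpt2LKODam_FloxFetus replicate 2. Adrenal cortex markers differed between whole groups, at 5.84 to 37.0 in KODam_HetFetus and 68.7 to 103 in HetDam_HetFetus livers, and no alternative addressed them. The 10 neutrophil and myeloid markers summed to 2926 to 4915 in KODam_HetFetus and 5002 to 7519 in HetDam_HetFetus livers, without overlap. Among these 10, 7 were lower with the maternal knockout, where 12.6% of all genes were called lower. The part of these markers in the clock gene results was not tested.

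The promoters of 4 of the 5 members that rose with maternal Ppara loss, and of 2 family members beside them that were not called, show which E-box and D-box letters lie close to a start. RefSeq start sites of GRCm38.p6 gave 13 windows of 250 bases upstream for 9 of the 10 genes, and none for Per2. Of these windows, 6 are printed 5′ to 3′ on the strand of the gene, with matched motifs in capitals. Per1, a repressor of the loop that rose, has 2 windows, and the printed one lies at chr11:69098699-69098948 (plus strand). The other, at chr11:69099902-69100151, matched no motif searched. Cry2, which rose, lies at chr2:92434070-92434319 (minus strand), and Cry1, which was not called, at chr10:85185055-85185304 (minus strand). Nr1d1, which rose most, lies at chr11:98775378-98775627 (minus strand), and its relative Nr1d2 at chr14:18239107-18239356 (minus strand). Per3, not called, lies at chr4:151044666-151044915 (minus strand). Clock also rose, and its 3 windows, which held 1 match between them, are not printed. For the 4 members with no printed window, the whole genes span these positions in the same build: Arntl (chr7:113178471-113314126), Clock (chr5:76209868-76305603), Dbp (chr7:45705100-45710203) and Per2 (chr1:91415977-91459351).
Per1: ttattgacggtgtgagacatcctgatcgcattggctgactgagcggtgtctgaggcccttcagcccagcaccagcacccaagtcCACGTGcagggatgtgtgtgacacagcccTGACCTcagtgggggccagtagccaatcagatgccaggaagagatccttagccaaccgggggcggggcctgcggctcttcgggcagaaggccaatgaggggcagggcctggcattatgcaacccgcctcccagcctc
Cry2: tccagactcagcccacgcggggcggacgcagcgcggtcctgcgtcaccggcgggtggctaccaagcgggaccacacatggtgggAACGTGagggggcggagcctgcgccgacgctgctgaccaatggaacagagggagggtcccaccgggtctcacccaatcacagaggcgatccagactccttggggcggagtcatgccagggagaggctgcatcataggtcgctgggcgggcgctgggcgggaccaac
Cry1: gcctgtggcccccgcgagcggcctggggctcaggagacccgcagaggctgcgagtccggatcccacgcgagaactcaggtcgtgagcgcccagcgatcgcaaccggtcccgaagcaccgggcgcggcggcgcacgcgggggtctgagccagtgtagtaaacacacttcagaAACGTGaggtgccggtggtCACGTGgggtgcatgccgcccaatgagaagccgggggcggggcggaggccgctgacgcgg
Nr1d1: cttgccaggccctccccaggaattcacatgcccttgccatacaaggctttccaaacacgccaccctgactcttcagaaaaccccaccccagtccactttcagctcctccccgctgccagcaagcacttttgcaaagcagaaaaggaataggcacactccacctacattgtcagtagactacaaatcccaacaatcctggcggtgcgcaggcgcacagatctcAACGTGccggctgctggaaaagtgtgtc
Nr1d2: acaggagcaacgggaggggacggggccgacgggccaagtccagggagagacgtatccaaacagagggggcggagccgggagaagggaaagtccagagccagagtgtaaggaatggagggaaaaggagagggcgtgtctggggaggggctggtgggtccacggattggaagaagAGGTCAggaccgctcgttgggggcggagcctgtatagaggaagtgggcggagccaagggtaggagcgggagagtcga
Per3: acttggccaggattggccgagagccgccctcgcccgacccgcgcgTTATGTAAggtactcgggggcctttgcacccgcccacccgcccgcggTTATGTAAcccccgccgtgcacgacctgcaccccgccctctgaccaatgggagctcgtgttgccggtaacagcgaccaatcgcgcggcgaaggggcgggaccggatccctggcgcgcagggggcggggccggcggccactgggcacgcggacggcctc

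The motifs were searched on both strands, and none of the matches shown overlaps another. The E-box CACGTG stood 166 bases upstream of the Per1 start of the printed window and 60 bases upstream of the Cry1 start, and 6.02% of 32851 RefSeq windows of this length hold it. The related E′-box CACGTT, printed as AACGTG where it lies on the other strand, stood 166 bases upstream in Cry2, 79 in Cry1 and 28 in Nr1d1, against 3.85% of all windows. The D-box TTATGTAA, held by 0.819% of all windows, occurred at 205 and again at 158 bases upstream of Per3. The nuclear receptor half-site AGGTCA, printed as TGACCT on the other strand, stood 77 bases upstream of Nr1d2 and 137 upstream of Per1, and 14.0% of all windows hold it. It also stood 119 bases upstream of 1 of the 3 Clock starts. The D-box variant TTACGTAA (0.113% of all windows) and the cyclic AMP element TGACGTCA (1.55%) were in no member window. The windows of Arntl and Dbp matched none of the motifs searched. A match is a description of these letters and not a binding site.

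Maternal Ppara loss went with higher levels of both Nr1d genes, Per1, Cry2 and Clock, and with a lower level of Per2, in fetuses that were themselves heterozygous in both groups. In KODam_HetFetus against HetDam_HetFetus livers, 5 of the 10 members were called higher and 1 lower at a limma adjusted p under 0.05. The backgrounds are high in this comparison: 26.4% of the 11800 genes tested were called higher and 12.6% lower, 39% in all. The median log2 fold change was 0.82 over the members and 0.14 over all genes tested. Shifting each library by a trimmed mean brought the all-gene median to 0.02 and the share of rises among called genes to 49.8%, against 67.8% as deposited. Under that scaling the same comparison still gave 5 members higher and 1 lower, where 4444 genes were called in all, against 4600 as deposited. With a pseudocount of 4 the fold changes shrank to 0.15 for Clock, -0.34 for Per2, 0.53 for Nr1d2 and 1.18 for Nr1d1, and these 4 still passed. Without the 4 libraries that carried markers of neighbouring tissues 4 members were called higher and 0 lower, where 3173 genes were called, 74.2% of them higher. Without KODam_HetFetus replicate 1 alone 3 members were higher and 0 lower, where 3536 genes were called, 73.2% of them higher. Values in the 4 libraries of a group are given in the order of replicates 1 to 4, and p-values measure the spread between these fetuses, littermates included. The main fit takes presumed littermates as independent. The alternative with litter as a random factor estimated a consensus correlation of 0.566 within presumed litters, so the main standard errors may be too small.

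The groups did not overlap in 4 of the 10 members, against 36.3% of 11667 genes without a blank in these libraries. In the plot of every library, KODam_HetFetus and HetDam_HetFetus livers stood well apart for Nr1d2 and Per1, while they overlapped for Per2 and Clock.

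**Figure D1:**
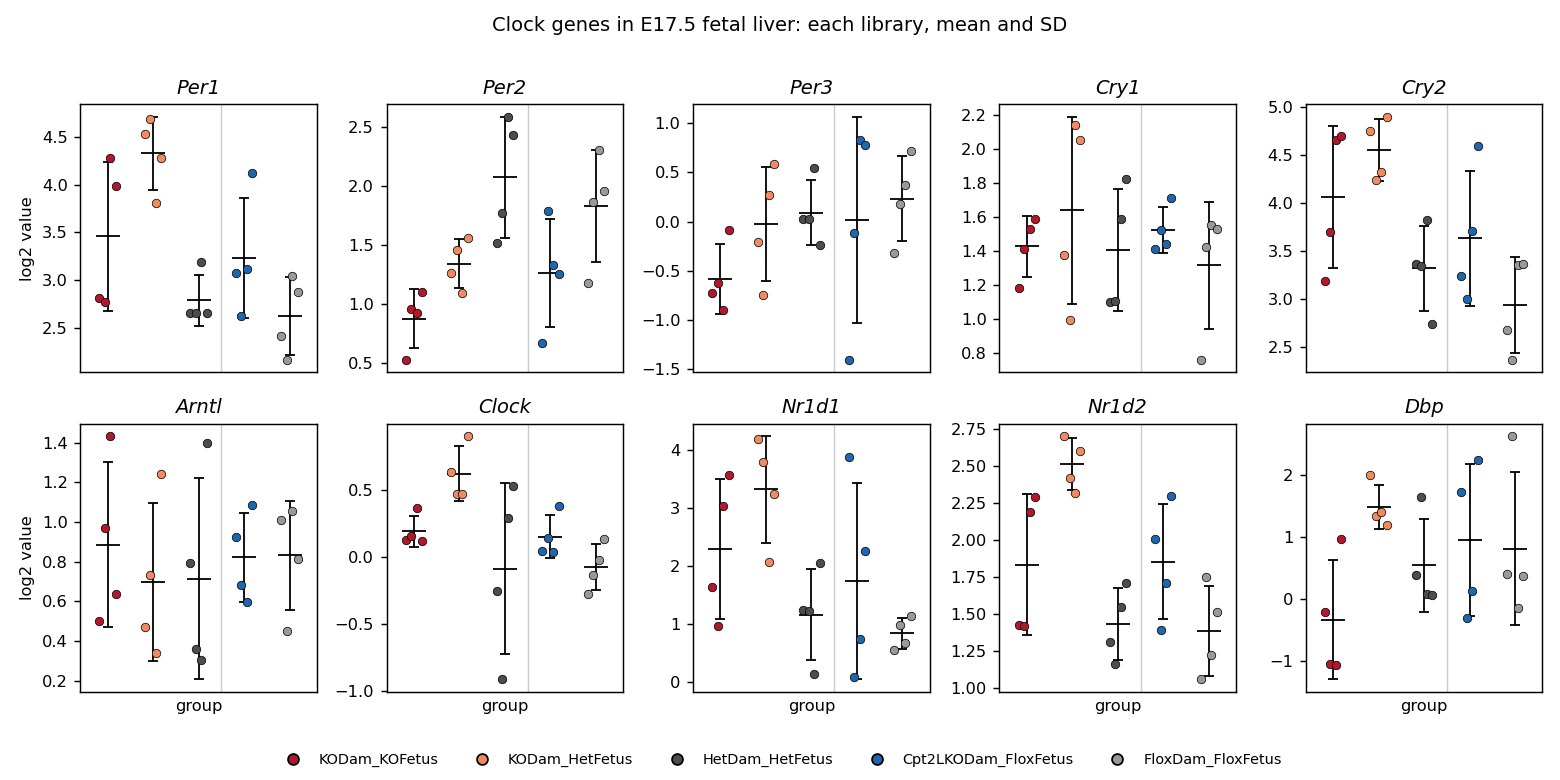
Log2 value (vertical axis) of each of the 10 clock genes in the 20 fetal livers, by group (horizontal axis, colours as in the legend), with each point a library and the lines the group mean and SD (n = 4). The KODam_HetFetus points lie above the HetDam_HetFetus points without overlap for Per1, Cry2, Nr1d1 and Nr1d2, and KODam_KOFetus spreads widely for Per1, Cry2, Nr1d1 and Nr1d2.

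Of the 2 activators of the loop, Clock rose with maternal Ppara loss and Arntl was not called. Arntl, which encodes BMAL1 and is the one member whose loss alone stops the clock, had 0.50, 0.97, 1.44 and 0.64 in KODam_KOFetus, 0.47, 0.73, 0.34 and 1.24 in KODam_HetFetus, and 0.80, 0.36, 0.30 and 1.40 in HetDam_HetFetus livers. It had 0.92, 0.68, 0.59 and 1.08 in Cpt2LKODam_FloxFetus and 1.01, 0.45, 1.05 and 0.82 in FloxDam_FloxFetus livers. All 5 groups overlapped, and its difference with maternal Ppara loss was -0.02 ± 0.26 (SE; 95% interval -0.56 to 0.53; limma adjusted p = 0.965).

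Clock, its DNA-binding partner and a histone acetyltransferase, had 0.64, 0.47, 0.47 and 0.91 in KODam_HetFetus and -0.25, -0.91, 0.29 and 0.53 in HetDam_HetFetus livers. The groups overlapped, with HetDam_HetFetus replicate 2 the lowest liver. Clock rose by 0.71 ± 0.24 (1.63-fold, limma adjusted p = 0.0273). Over the 20 libraries its linear values were low, from 0.53 in HetDam_HetFetus replicate 2 to 1.88 in KODam_HetFetus replicate 4. The minimum for testing was a linear value of 1 in at least 4 libraries. The call was lost when HetDam_HetFetus replicate 2 was left out (0.43, adjusted p = 0.105). It was also lost without KODam_HetFetus replicate 1 (0.0571) or 4 (0.0776), without HetDam_HetFetus replicate 1 (0.0648), and when only these 2 groups were fitted (0.105), all limma adjusted p-values. Quantile normalization of the tested genes (0.50, limma adjusted p = 0.0711) and leaving out the littermate pair KODam_HetFetus 1 and 2 (0.77, 0.078) ended it too. In KODam_KOFetus livers Clock had 0.13, 0.16, 0.37 and 0.12, all below the 4 KODam_HetFetus values. Its Cpt2-arm values were 0.05, 0.15, 0.04 and 0.39 in Cpt2LKODam_FloxFetus and -0.28, -0.14, -0.02 and 0.13 in FloxDam_FloxFetus livers, which overlapped.

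Among the period genes, which encode the PER repressors, Per1 and Per2 moved in opposite directions. Per1, which glucocorticoids and cyclic AMP signals can induce, had 4.53, 4.69, 3.81 and 4.28 in KODam_HetFetus and 2.65, 2.65, 3.19 and 2.65 in HetDam_HetFetus livers. The lowest KODam_HetFetus liver lay above the highest HetDam_HetFetus liver. Per1 rose by 1.54 ± 0.34, or 2.91-fold (limma adjusted p = 0.00201). It passed the threshold in all 22 alternatives run, with fold changes of 1.143 to 1.712 on the log2 scale and adjusted p-values of 0.00104 to 0.0389.

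Per1 in KODam_KOFetus livers fell into a low and a high pair, 2.81 and 2.77 in the presumed littermates 1 and 2, and 4.27 and 3.98 in fetuses 3 and 4. Fetuses 1 and 2 were male and fetuses 3 and 4 female, so litter and sex cannot be told apart in these pairs. The low pair lay within the range of HetDam_HetFetus livers and the high pair within that of KODam_HetFetus livers. Between dams with and without liver Cpt2 loss, Per1 had 3.07, 2.62, 3.12 and 4.12 in Cpt2LKODam_FloxFetus and 2.42, 2.16, 3.04 and 2.87 in FloxDam_FloxFetus livers. These overlapped, with replicate 4 of Cpt2LKODam_FloxFetus above all others.

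Per2, whose protein binds CRY and also nuclear receptors, had 0.53, 0.96, 0.92 and 1.11 in KODam_KOFetus, 1.26, 1.46, 1.10 and 1.56 in KODam_HetFetus, and 1.52, 1.78, 2.58 and 2.43 in HetDam_HetFetus livers. KODam_KOFetus lay wholly below HetDam_HetFetus, and KODam_HetFetus lay between them and overlapped both. Per2 was the 1 member of 10 without overlap between KODam_KOFetus and HetDam_HetFetus livers, and the share over all genes was not counted there. Per2 fell by 0.73 log2 units (SE 0.27) with maternal loss alone, to 0.60 times its HetDam_HetFetus level (limma adjusted p = 0.0352). It fell by 1.20 (SE 0.27) in KODam_KOFetus against HetDam_HetFetus livers (0.44 times; limma adjusted p = 0.00408). The fall in KODam_KOFetus passed the threshold in all 20 alternatives that tested it. The fall with maternal loss alone did not pass with litter as a random factor (-0.74, adjusted p = 0.0565) or without the littermate pair KODam_HetFetus 1 and 2 (-0.75, adjusted p = 0.115). It was also lost without KODam_HetFetus replicate 1 (0.0756) or 3 (0.0864), or without HetDam_HetFetus replicate 3 (0.118) or 4 (0.101), with 1 library per presumed litter (0.0635) and without the 4 libraries that carried markers of neighbouring tissues (0.0528), all limma adjusted p-values. In the Cpt2 groups Per2 had 0.67, 1.79, 1.33 and 1.26 in Cpt2LKODam_FloxFetus and 1.18, 1.87, 2.31 and 1.96 in FloxDam_FloxFetus livers. Those groups overlapped, and the difference of -0.57 ± 0.27 had a limma adjusted p of 0.443.

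Per3, the period gene that the loop can do without, had -0.73, -0.62, -0.90 and -0.09 in KODam_KOFetus, -0.21, -0.74, 0.27 and 0.58 in KODam_HetFetus, and 0.02, 0.03, 0.55 and -0.24 in HetDam_HetFetus livers. It had -1.41, -0.12, 0.83 and 0.77 in Cpt2LKODam_FloxFetus and -0.32, 0.17, 0.37 and 0.71 in FloxDam_FloxFetus livers. All of these groups overlapped their comparison group. KODam_KOFetus had the lowest mean of the 5 groups and differed from HetDam_HetFetus by -0.68 ± 0.41 (limma adjusted p = 0.229).

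Of the cryptochromes, which carry most of the repression of CLOCK and ARNTL, Cry2 rose and Cry1 was not called. Cry2 had 4.75, 4.24, 4.32 and 4.90 in KODam_HetFetus and 3.36, 3.34, 3.83 and 2.74 in HetDam_HetFetus livers, without overlap. It rose by 1.24 ± 0.36, or 2.35-fold (limma adjusted p = 0.0119). Without the 4 libraries that carried markers of neighbouring tissues, of which 2 are HetDam_HetFetus, the rise was 0.97 with a limma adjusted p of 0.108. KODam_KOFetus livers had 3.19 and 3.70 in the presumed littermates 1 and 2 and 4.66 and 4.70 in fetuses 3 and 4, the same low and high pairs as for Per1. In the Cpt2 groups Cry2 had 3.24, 2.99, 3.71 and 4.59 in Cpt2LKODam_FloxFetus and 2.67, 2.36, 3.35 and 3.37 in FloxDam_FloxFetus livers. They overlapped, and replicate 4 of Cpt2LKODam_FloxFetus was again the highest.

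Cry1, the stronger repressor of the pair in adult tissues, had 1.18, 1.41, 1.53 and 1.59 in KODam_KOFetus, 1.37, 0.99, 2.14 and 2.05 in KODam_HetFetus, and 1.10, 1.11, 1.59 and 1.82 in HetDam_HetFetus livers. It had 1.41, 1.52, 1.44 and 1.71 in Cpt2LKODam_FloxFetus and 0.76, 1.42, 1.55 and 1.53 in FloxDam_FloxFetus livers. Every pair of groups compared overlapped, and its fold changes ran from -0.21 to 0.23 over the 4 comparisons with a knockout. In KODam_HetFetus the presumed littermates 1 and 2 were the 2 low values, and without them the difference was 0.69 with a limma adjusted p of 0.0407.

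Nr1d1 and Nr1d2, nuclear receptors for heme that repress Arntl and many lipid genes, both rose with maternal Ppara loss. Nr1d1 had 4.19, 3.79, 2.07 and 3.24 in KODam_HetFetus and 1.24, 1.23, 0.13 and 2.05 in HetDam_HetFetus livers. The ranges met closely, at 2.07 and 2.05, without overlap. The rise of 2.16 ± 0.68, or 4.47-fold, was the largest of the 10 members (95% interval 0.73 to 3.59; limma adjusted p = 0.0183). Without the littermate pair KODam_HetFetus 1 and 2, the 2 highest livers, it was 1.49 with an adjusted p of 0.197. The call was lost also without KODam_HetFetus replicate 1 alone (1.87, adjusted p = 0.0615) and without HetDam_HetFetus replicate 3, the lowest liver (1.82, adjusted p = 0.0596). Of the 3077 exonic bases of Nr1d1, 263 face exons of Thra on the other strand, and the counting's use of strand is not given in the sources used here. Thra itself differed by 0.17 ± 0.15 (limma adjusted p = 0.407).

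Nr1d1 in KODam_KOFetus livers had 1.63, 0.96, 3.02 and 3.57, again with replicates 1 and 2 low and 3 and 4 high. Its values were 3.87, 0.08, 0.74 and 2.25 in Cpt2LKODam_FloxFetus and 0.55, 0.98, 0.68 and 1.14 in FloxDam_FloxFetus livers. The 4 Cpt2LKODam_FloxFetus livers held both the lowest and the highest Nr1d1 values of those groups, with an SD of 1.69 against 0.27 in FloxDam_FloxFetus.

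Nr1d2 was the steadier relative. It had 2.71, 2.42, 2.32 and 2.61 in KODam_HetFetus and 1.32, 1.16, 1.55 and 1.71 in HetDam_HetFetus livers, well apart. It rose by 1.08 ± 0.23, or 2.11-fold, with the smallest adjusted p of the members (limma, 0.00146). All 22 alternatives kept the call, with fold changes of 0.53, under a pseudocount of 4, to 1.17. KODam_KOFetus livers had 1.43, 1.42, 2.19 and 2.30, all below the lowest KODam_HetFetus liver. The Cpt2 groups had 2.01, 1.40, 1.71 and 2.30 in Cpt2LKODam_FloxFetus and 1.06, 1.75, 1.23 and 1.52 in FloxDam_FloxFetus livers, which overlapped.

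Dbp, the D-box activator that adult liver transcribes in direct response to CLOCK and ARNTL, varied widely. It had -0.21, -1.04, -1.07 and 0.98 in KODam_KOFetus, 2.01, 1.34, 1.41 and 1.19 in KODam_HetFetus, and 0.40, 1.65, 0.09 and 0.06 in HetDam_HetFetus livers. KODam_HetFetus lay above all 4 KODam_KOFetus livers and overlapped HetDam_HetFetus through 1 liver at 1.65. With maternal loss the difference was 0.94 ± 0.62 (limma adjusted p = 0.235), which did not pass. Dbp had 1.74, -0.30, 0.14 and 2.24 in Cpt2LKODam_FloxFetus and 0.40, 2.64, -0.15 and 0.38 in FloxDam_FloxFetus livers, with each group holding high and low livers. Exons of Sphk2 on the other strand face 539 of the 2993 exonic bases of Dbp. Sphk2 itself differed by -0.37 ± 0.15 with maternal Ppara loss (limma adjusted p = 0.0587). Exons of untested genes on the other strand also face 295 of the 6320 exonic bases of Cry2 and 33 of the 7523 of Arntl.

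The sizes of the fold changes and their intervals are set side by side in the plot of the 4 knockout comparisons. The first 3 of these share KODam_HetFetus, KODam_KOFetus or HetDam_HetFetus libraries with each other and are not independent.

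**Figure D2:**
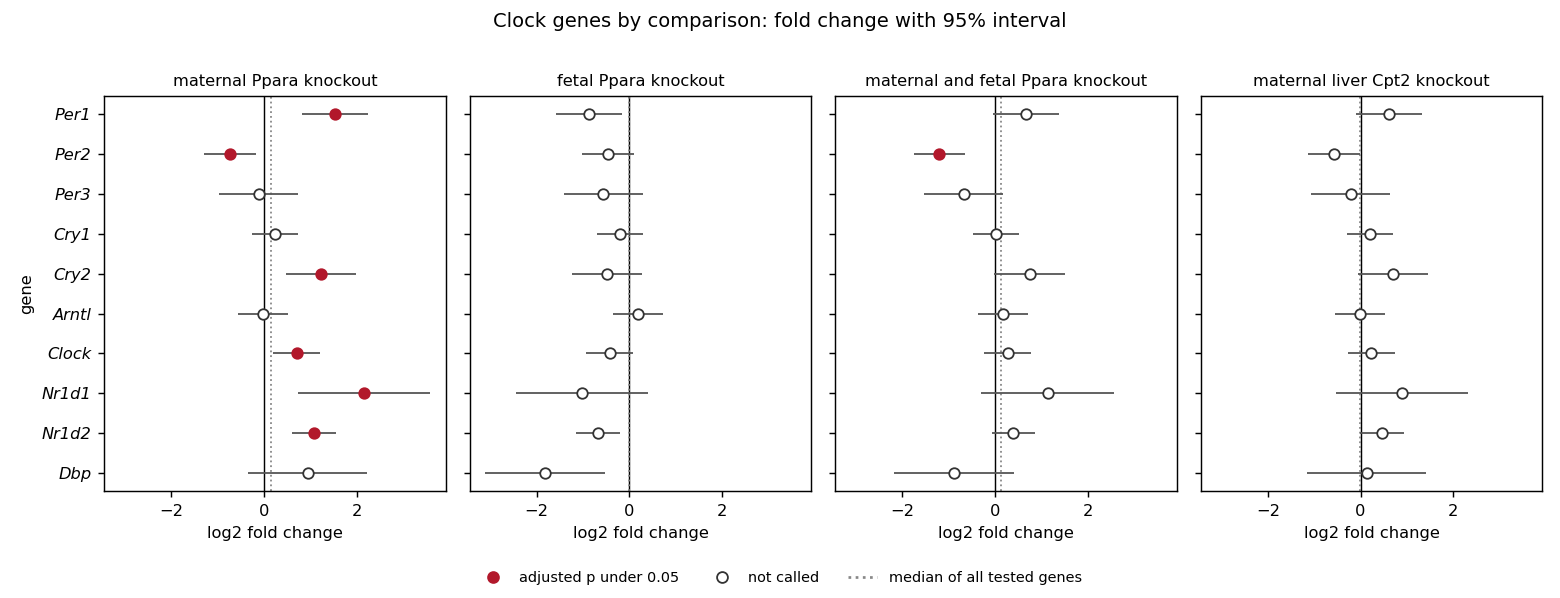
Log2 fold change (horizontal axis) of each clock gene (vertical axis) in 4 comparisons, each the knockout minus its comparison group, with 95% intervals from limma and filled points for an adjusted p under 0.05. The dotted line is the median of all genes tested. With the maternal Ppara knockout 6 points are filled, with maternal and fetal knockout together only Per2 is, and in the other panels none is.

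Loss of the fetus's own Ppara gave no called change in the clock genes. In KODam_KOFetus against KODam_HetFetus livers, 0 of the 10 members passed with limma and 3 had an unadjusted p under 0.05. Of the 11805 genes tested, 0.822% were called, 0.0254% higher and 0.796% lower, and 1287 had an unadjusted p under 0.05. The 3 members were Dbp, Nr1d2 and Per1, all with lower means in knockout fetuses. Dbp differed by -1.82 ± 0.62 (limma adjusted p = 0.301), Nr1d2 differed by -0.68 ± 0.23 (0.285) and Per1 by -0.87 ± 0.34 (0.382). Clock, Nr1d2 and Dbp, 3 of the 10 members, did not overlap between these groups, nor did 5.67% of 11705 genes without a blank. The median over the members was -0.53, against -0.01 over all genes. Of the 10 members, Arntl alone had a higher mean in KODam_KOFetus livers, by 0.19 ± 0.26. The knockout and heterozygous fetuses came from different presumed litters, so the effects of fetal genotype and of dam cannot be told apart.

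With Ppara lost in both dam and fetus, Per2 was the one clock gene that passed. In KODam_KOFetus against HetDam_HetFetus livers 0 members were called higher and 1 lower, where 17.4% of genes were called higher and 7.31% lower (24.7% of 11801 in all). Trimmed-mean scaling gave 45.4% rises among the called genes, against 70.4% as deposited. The members that rose with maternal loss alone had intermediate means here. Per1 differed by 0.67 ± 0.34 (limma adjusted p = 0.148), Cry2 by 0.75 ± 0.36 (0.134), Nr1d1 by 1.13 ± 0.68 (0.228) and Nr1d2 by 0.40 ± 0.23 (0.199). Within KODam_KOFetus the presumed littermates 1 and 2, both male, had the 2 lowest values of all 4 genes. Without replicate 1, Cry2 passed at 1.04 (limma adjusted p = 0.0494).

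Maternal liver Cpt2 loss gave no called clock gene either. In Cpt2LKODam_FloxFetus against FloxDam_FloxFetus livers 0 of 10 members passed, as did 0% of the 11805 genes tested with limma, of which 1311 had an unadjusted p under 0.05. Per2 was the 1 member under that unadjusted threshold. The means of Per1, Cry2, Nr1d1 and Nr1d2 were higher in Cpt2LKODam_FloxFetus livers, by 0.61 ± 0.34, 0.70 ± 0.36, 0.90 ± 0.68 and 0.47 ± 0.23 log2 units (limma adjusted p 0.502, 0.482, 0.644 and 0.452). In all 4 genes the groups overlapped.

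The difference between the 2 maternal effects was tested in the same limma fit, as the change with maternal Ppara loss minus the change with maternal Cpt2 loss. None of the 10 members passed, and none had an unadjusted p under 0.05. Over all genes 0% of 11798 passed and 2343 had an unadjusted p under 0.05. The interval for Per1 was -0.07 to 1.93 around 0.93, that for Nr1d1 -0.76 to 3.28 around 1.26, and that for Nr1d2 -0.06 to 1.28 around 0.61, so the data do not show that the effects differ or that they are alike. The control groups, HetDam_HetFetus against FloxDam_FloxFetus, differed in the members by -0.27 to 0.38, with 0 called (limma adjusted p of at least 0.627) and 0 at an unadjusted p under 0.05. Of the 11800 genes tested 0.136% were called there, 0.0593% higher and 0.0763% lower, and 1946 had an unadjusted p under 0.05.

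Livers of the same group varied more in some clock genes than in others. The pooled SD within groups was 1.08 for Nr1d1 and 0.97 for Dbp, at the 98.9 and 98.3 percentiles of the 11634 tested genes with no blank, against a median gene of 0.27. It was 0.61 for Per3, 0.57 for Cry2, 0.53 for Per1, 0.40 for Per2, 0.38 for Arntl, 0.35 for Cry1, 0.34 for Nr1d2 and 0.32 for Clock. All 10 members were thus above the median gene in spread, with genes not matched by level. Per3, Clock, Dbp and Arntl had low means over the 20 libraries, at -0.05, 0.16, 0.70 and 0.79. The part of level in this spread was not tested.

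**Figure D3:**
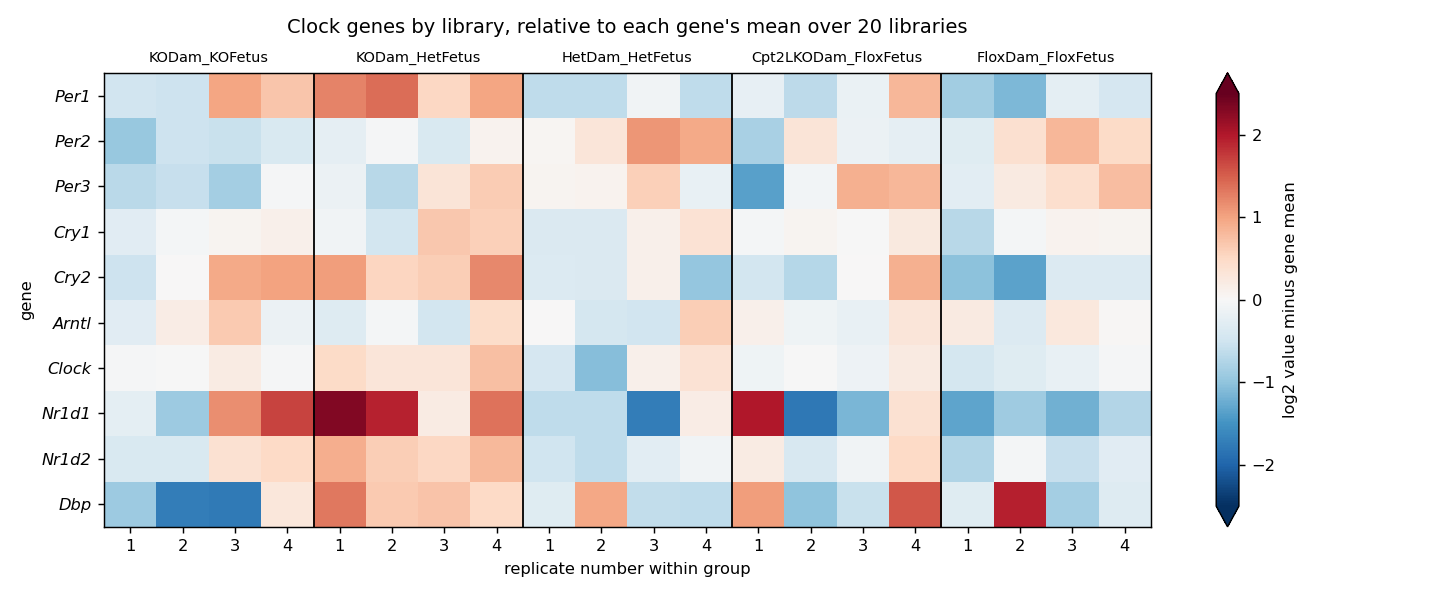
Log2 value of each clock gene (rows) in each library (columns, by group and replicate number) minus the mean of that gene over the 20 libraries, in colour from -2.5 (blue) to 2.5 (red). KODam_KOFetus replicates 3 and 4 are above the mean for Per1, Cry2, Nr1d1 and Nr1d2. Replicates 1 and 2 of that group are not above it for Per1, Nr1d1 and Nr1d2. Dbp is highest in FloxDam_FloxFetus replicate 2, whose log2 value is 2.64 before the gene mean of 0.70 is subtracted.

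In adult liver Arntl peaks when Nr1d1 and Dbp are low, so the covariation of Arntl with the other 9 members was computed on deviations from the group means over the 20 libraries. None of the 9 relations passed (permutation within groups, two-sided, Benjamini-Hochberg adjusted p of at least 0.443 for r and 0.632 for rho). Clock had the highest coefficient, r = 0.521 (permutation p = 0.0895) and rho = 0.344 (permutation p = 0.227), and r was 0.320 without the 2 libraries farthest from the median of Arntl. Nr1d1 had r = 0.345 and rho = 0.359 (permutation p = 0.148 and 0.156), with r = 0.219 without those 2 libraries. Dbp had r = -0.337 and rho = -0.341 (permutation p = 0.143 and 0.161), with r = -0.249 without them. Littermates share a dam, so the libraries are not fully independent.

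The genes whose profiles were most like each member were ranked by Pearson r over the 20 libraries among 10551 other tested genes. These libraries share 5 group means, litters and one normalization, so the coefficients are descriptions. Per1 was closest to Sidt2 (0.973), Ndst2 (0.968) and Atg9a (0.967), Cry2 to Ndor1 (0.955), and Clock to Pikfyve (0.949) and Lats1 (0.940). Nr1d2 was closest to Slc12a4 (0.926) and Mpp3 (0.923), and Nr1d1 to Spry1 (0.917), Arrdc3 (0.889) and also Mpp3 (0.868). Per3 was closest to Tef (0.854), the D-box factor related to DBP and the one clock gene among these neighbours. Per2 was closest to Helz2 (0.881) and Cry1 to Dmxl2 (0.833). Arntl and Dbp had no close neighbour, at most 0.701 (Fmod) and 0.666 (Hcfc1r1).

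Beyond the core members, 13 accessory loop genes were followed, of which 9 were tested and Arntl2, Npas2, Rorb and Bhlhe41 were too low. With maternal Ppara loss 3 of the 9 rose and 0 fell, where 26.4% of all genes were called higher and 12.6% lower, and the list median was 0.19 against 0.14 over all genes. Ciart (CHRONO), which represses CLOCK and ARNTL, had 0.39, 0.42, 1.03 and 1.02 in KODam_HetFetus and -1.37, -1.10, -1.37 and -1.86 in HetDam_HetFetus livers. The groups lay far apart. It rose by 2.14 ± 0.39 (limma adjusted p = 6.01e-04), and since its level is low the fold change was 0.37 with a pseudocount of 4. Timeless, a replication fork protein that binds CRY, rose by 1.00 ± 0.22 (0.00225), and Cipc, an inhibitor of CLOCK, by 0.53 ± 0.14 (0.00652), both limma adjusted p-values. Cipc lost its call in 1 of 21 alternatives (largest adjusted p = 0.0544, limma). Tef, Hlf, Nfil3, Rora and Bhlhe40 were not called, with fold changes of -0.21 to 0.19. In KODam_KOFetus against HetDam_HetFetus livers Ciart rose by 1.29 ± 0.39 (limma adjusted p = 0.0229) and Cipc by 0.57 ± 0.14 (0.00751), 2 of the 9 where 17.4% of all genes were called higher. The call of Ciart was lost in 6 of 20 alternatives, among them quantile normalization of the tested genes (limma adjusted p = 0.0969), a pseudocount of 4 (0.109) and the fit without the 4 libraries with markers of neighbouring tissues (0.155). That of Cipc was lost in 1 of 20 (limma adjusted p = 0.054). In the Cpt2 groups Ciart averaged 0.46 ± 0.83 in Cpt2LKODam_FloxFetus and -0.94 ± 0.48 in FloxDam_FloxFetus livers (SD, n = 4 each), without overlap, as in 6.04% of 11724 genes. That difference of 1.40 ± 0.39 had a limma adjusted p of 0.346.

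Kinases and ubiquitin ligases set the stability of the PER and CRY proteins, and corepressors work with PER, CRY or the NR1D receptors. Of 18 such genes 15 were tested, and 7 rose and 1 fell with maternal Ppara loss, where 26.4% of all genes were called higher and 12.6% lower (list median 0.37, all genes 0.14). Gsk3b, a kinase of several clock proteins, rose by 0.85 ± 0.17, and Sirt1, a deacetylase that acts on ARNTL and PER2, by 0.88 ± 0.19 (limma adjusted p = 9.75e-04 and 0.00159). Fbxw11 and Btrc encode related ligase subunits that recognise PER. Fbxw11 rose by 0.69 ± 0.14 (limma adjusted p = 0.00127), and Btrc fell by 0.48 (SE 0.16; 0.0232). The casein kinase genes Csnk1a1, Csnk1d and Csnk1e rose by 0.32, 0.37 and 0.49. In KODam_KOFetus against HetDam_HetFetus livers 3 of the 15 rose and 0 fell, namely Sirt1, Fbxw11 and Gsk3b, a share near the 17.4% of all genes called higher. Sirt1 lost that call in 2 of 20 alternatives, Fbxw11 in 7 of 21 and Gsk3b in 9 of 21, with trimmed-mean scaling among those for Fbxw11 (limma adjusted p = 0.105) and Gsk3b (0.0962).

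Of 12 genes that the clock drives in adult liver 11 were tested, and with maternal Ppara loss 2 rose and 1 fell, where 26.4% of all genes were called higher and 12.6% lower (list median 0.42, all genes 0.14). Wee1, a cell cycle kinase under E-box control, rose by 0.63 ± 0.16, Cdkn1a, a cell cycle inhibitor repressed by NR1D1, rose by 1.19 ± 0.33, and Nampt, the rate-limiting enzyme of NAD salvage, fell by 0.56 (SE 0.20). Their limma adjusted p-values were 0.00532, 0.00858 and 0.0343. Nampt lost its call in 8 of 22 alternatives, among them litter as a random factor (-0.55, limma adjusted p = 0.0665). Wee1 lost its call without the littermate pair (0.40, limma adjusted p = 0.115), and Cdkn1a without the 4 libraries with markers of neighbouring tissues (0.71, 0.181). With Ppara lost in both dam and fetus, Noct, a rhythmic phosphatase gene, rose by 0.76 ± 0.20 (limma adjusted p = 0.0124). That call was lost with litter as a random factor (0.67, limma adjusted p = 0.0539), with only the groups compared (0.0501) and without the 4 libraries (0.11). Gys2, liver glycogen synthase and a target of both CLOCK and PPARA, fell by 1.23 (SE 0.18; 3.47e-04) and kept its call in all 21 alternatives. These 2 were the genes of the 11 called there, where 17.4% of all genes were called higher and 7.31% lower. In the fetal knockout, the Cpt2 knockout, their difference and the control groups, 0 genes of these 3 lists were called with limma.

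Signals known to reset liver clocks, glucocorticoids and temperature, were followed through their target genes. Of 15 glucocorticoid-induced genes without Per1, all tested, 4 rose and 1 fell with maternal Ppara loss, a share of rises near the 26.4% of all genes called higher, where 12.6% were called lower (list median 0.66, all genes 0.14). Sgk1, a kinase gene induced by serum and glucocorticoids, averaged 3.84 ± 0.14 in KODam_HetFetus and 1.93 ± 0.15 in HetDam_HetFetus livers (SD, n = 4 each) and rose by 1.92 ± 0.32 (limma adjusted p = 3.40e-04). Errfi1, Mt1 and Ddit4 rose by 1.04, 0.91 and 0.62, Ddit4 close to the threshold (limma adjusted p = 0.048), and Lcn2, which neutrophils also express, fell by 0.96. Mt1 lost its call in 8 of 22 alternatives, among them litter as a random factor (limma adjusted p = 0.0526), trimmed-mean scaling (0.0779) and the fit without the littermate pair (0.50, 0.31). Errfi1 lost its call in 2 of 22 and Lcn2 in 1 of 22. Tsc22d3, Fkbp5, Klf9 and Dusp1 were among the 10 genes not called. With Ppara lost in both, 3 rose (Sgk1 by 1.74, Ddit4 by 0.76 and Mt1 by 0.91) and Lcn2 fell by 0.74, where 17.4% of all genes were called higher and 7.31% lower. With litter as a random factor Ddit4 (limma adjusted p = 0.0604) and Lcn2 (0.0673) were not called. In all, Mt1 lost its call in 11 of 21 alternatives, Ddit4 in 8, with 0.37 and a limma adjusted p of 0.415 without the 4 libraries, and Lcn2 in 5, while Sgk1 kept its call in all 21.

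Of 12 heat shock and cold-inducible genes 10 were tested, and 3 rose and 0 fell with maternal Ppara loss, where 26.4% of all genes were called higher and 12.6% lower (list median 0.06, all genes 0.14). The 3 were the cold-inducible RNA-binding protein genes Cirbp and Rbm3, both called in all 22 alternatives, and the chaperone gene Hsp90aa1 (0.51, limma adjusted p = 0.02), which lost its call in 7 of 22, among them litter as a random factor (0.0812). Cirbp averaged 6.03 ± 0.27 in KODam_HetFetus and 4.21 ± 0.61 in HetDam_HetFetus livers and rose by 1.82 ± 0.34 (limma adjusted p = 7.02e-04). Rbm3 averaged 6.93 ± 0.09 in KODam_HetFetus and 5.91 ± 0.37 in HetDam_HetFetus livers and rose by 1.02 ± 0.17 (limma adjusted p = 3.63e-04). CIRBP protein is known to bind clock transcripts, Clock among them, and a link between Cirbp and Clock was not tested here. In KODam_KOFetus against HetDam_HetFetus livers Rbm3 rose by 1.02 ± 0.17 and Cirbp by 1.20 ± 0.34 (limma adjusted p = 7.60e-04 and 0.0162). Dnajb1 and Hsp90aa1 were called higher too, so 4 of the 10 rose where 17.4% of all genes did. With litter as a random factor Dnajb1 (0.38, limma adjusted p = 0.0648) and Hsp90aa1 (0.44, 0.126) were not called. Dnajb1 lost its call in 6 of 21 alternatives, Hsp90aa1 in 10 and Cirbp in 3, each of these 3 by leaving out 1 library (largest limma adjusted p = 0.0593), and Rbm3 kept it in all 21. In the Cpt2 groups Cirbp averaged 5.42 ± 0.61 in Cpt2LKODam_FloxFetus and 4.47 ± 0.42 in FloxDam_FloxFetus livers, without overlap, and the difference of 0.96 ± 0.34 had a limma adjusted p of 0.377.

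**Figure D4:**
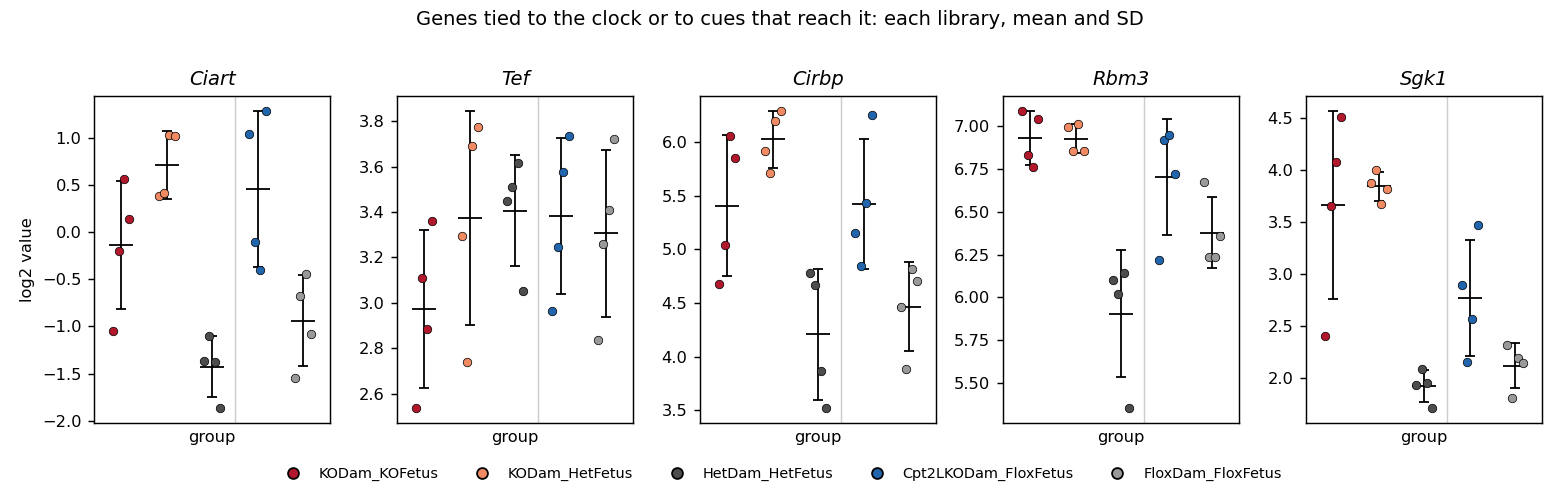
Log2 value (vertical axis) of 5 genes tied to the clock or to cues that reach it, by group (horizontal axis, colours as in the legend), with each point a fetal liver and the lines the group mean and SD (n = 4). Ciart, Cirbp, Rbm3 and Sgk1 lie higher in KODam_HetFetus than in HetDam_HetFetus livers without overlap, and Tef overlaps between these groups.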

How the data were processed

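Stranded poly(A) libraries from Trizol-extracted RNA were read as single reads of 75 nucleotides, per the labels' protocols. The submitters' processing notes name bcl2fastq 2.17.1.14, Partek 7.0 and the mouse build GRCm38.p6. The authors deposited log2 values for 45802 gene entries. All libraries have identical quantiles over the values present, so the table was quantile normalized before deposit. For the aligner, the counting rule and what was logged, nothing is stated (not given in the sources used here). Read numbers cannot be recovered from such values, so depth and the precision it gives are unknown. Libraries had 23334 to 26255 genes with a value and correlated at 0.951 to 0.987, with no duplicates. Blanks were read as missing.

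Testing was limited to the 11807 genes with linear values of 1 or more in 4 or more libraries, and 173 of them had a blank. All 20 libraries entered one limma 3.58.1 fit in R 4.3.3, with a mean per group and empirical Bayes moderation with a trend (residual degrees of freedom 15, prior 4.09). Two-sided p-values had Benjamini-Hochberg adjustment over all genes of a comparison, with calls under 0.05. The fit was tested on simulated data. Groups and sex came from the labels. The members, lists and tests were chosen with earlier results of these data known. Named genes are the 10 members, Ppara and Cpt2, up to 4 called genes per list and comparison with the smallest p, and the closest profiles by r. The casein kinase genes, Ddit4 with the maternal knockout, Thra and Sphk2 were named after their values were seen. Covariation with Arntl used 100000 permutations (scipy 1.17.1).

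Same-numbered replicates of the control groups deviated together (correlations of 0.127 to 0.323 over genes), although no label pairs those groups and pair 3 did not correlate best with its own number. Replicate number was fitted as a block in an alternative only. The block changed no member call there. In the other comparisons at least 1 pair correlated under 0.1. Alternatives varied the scaling, pseudocount, filter, covariates, litter and libraries. Promoter windows came from the RefSeq table of GRCm38.p6, and exon overlaps from GENCODE. The list counts include genes whose own values are not reported here.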

Additional observations from a re-analysis of the deposited data

Results flagged for a closer look

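Single livers stood apart from the other 3 of their group in 4 of the 75 gene and group combinations examined, and chance alone flags about 1 in 20. Per1 was 3.19 in HetDam_HetFetus replicate 3, above 3 livers at 2.65. Cry1 was 0.76 in FloxDam_FloxFetus replicate 1, below livers at 1.42 to 1.55. Clock was 0.37 in KODam_KOFetus replicate 3, above livers at 0.12 to 0.16. Rbm3 was 5.36 in HetDam_HetFetus replicate 4, a library that also carried skeletal muscle markers, below livers at 6.02 to 6.14. Without the liver that stood apart, the rises with maternal Ppara loss were 1.67 for Per1 and 0.84 for Rbm3, and both kept their calls.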

How the results depend on the processing

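The calls of Per1 and Nr1d2 with maternal Ppara loss kept their direction and their side of the threshold under every alternative run. That of Per2 with Ppara lost in both did so in all 20 alternatives that tested it. The count of members lower with maternal loss was 0 in place of 1 with a linear minimum of 4. At that minimum Per2, Per3, Cry1, Arntl, Clock and Dbp were not tested. That count was also 0 with litter as a random factor, without the littermate pair and with 1 library per presumed litter. It was 0 too without the 4 libraries with markers of neighbouring tissues, an alternative chosen after seeing the data. With Ppara lost in both the count was 0 with a linear minimum of 4, where Per2 was again not tested. With each library left out in turn, maternal loss gave 3 to 5 members higher and 0 to 1 lower, and loss in both gave 0 to 1 higher and 1 lower. The replicate number as a block gave 5 higher and 1 lower with maternal loss, and changed no other count of members (1 lower for both, 0 elsewhere). In KODam_KOFetus against KODam_HetFetus livers every fold change kept its sign.

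Values that changed sign belonged to members that were not called under either setting, and the cause was not tested. With maternal loss, Arntl was 0.0036 with litter as a random factor, 0.0772 without the littermate pair and 0.366 without the 4 libraries. Per3 was 0.338 without the pair and 0.126 with 1 library per litter. With loss in both, Cry1 was -0.0959 with trimmed-mean scaling and -0.0652 with quantile normalization of the tested genes. With Cpt2 loss, Arntl was 0.00131, 0.00464, 0.0116 and 0.035 under trimmed-mean scaling, quantile normalization, litter and without the 4 libraries, and Dbp was -0.0207 with litter and -0.0118 with 1 library per litter. In the difference of maternal effects, Per3 was -0.0381 and Cry1 -0.113 with trimmed-mean scaling, Per3 -0.0941 and Cry1 -0.0993 with quantile normalization, Per3 -0.0023 with a pseudocount of 4, Per3 -0.141 and Arntl 0.331 without the 4 libraries, and Arntl 0.0882 without the pair. The coefficient of Arntl with Per2 was -0.00125 after the mean of the tested genes was removed, against 0.114.

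With single libraries left out, signs also changed for Per3 (-0.316 to 0.126) and Arntl (-0.199 to 0.211) with maternal loss, and for Cry1 (-0.0798 to 0.159) and Arntl (-0.011 to 0.40) with loss in both. With Cpt2 loss they did so for Per3 (-0.485 to 0.262), Arntl (-0.138 to 0.0646) and Dbp (-0.296 to 0.742). In the difference they did so for Per2 (-0.364 to 0.0497), Per3 (-0.375 to 0.372), Cry1 (-0.14 to 0.241) and Arntl (-0.188 to 0.222). The number of called genes ranged from 2845 to 5320 with maternal loss against 4600, from 63 to 147 with fetal loss against 97, from 1757 to 3050 with both against 2916, from 0 to 1 with Cpt2 loss, from 0 to 421 for the difference and from 5 to 35 between controls against 16. Since depth is unknown, what it limits cannot be stated.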

Other observations

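Of the cell type marker lists, that of neutrophils and myeloid progenitors had the most members called with maternal Ppara loss, 7 of 10 lower and 0 higher, with a list median of -0.73. Over all genes 26.4% were called higher and 12.6% lower with maternal loss, and all marker counts for that comparison stand against these shares. With Ppara lost in both dam and fetus 5 of the 10 neutrophil and myeloid markers were lower, where 7.31% of all genes were called lower. Their summed linear level was 3485 to 5995 in KODam_KOFetus and 5002 to 7519 in HetDam_HetFetus livers. With maternal loss alone 4 macrophage markers of 10 were lower and 1 higher, 2 B lymphoid markers of 8 tested were lower, 1 megakaryocyte marker of 9 was lower, and 2 cholangiocyte markers of 5 were lower. Of 10 endothelial markers 2 were higher and 2 lower, and 1 stellate marker of 9 was higher. Of 10 erythroid markers 2 were higher, and of 10 hepatocyte markers 1 was higher and 1 lower. Skeletal muscle, exocrine pancreas and stomach and intestine lists had 4, 3 and 2 members tested and none called in that comparison. The adrenal cortex list had 1 of 8 markers tested, called lower with maternal loss (log2 fold change -2.86) and with loss in both (-1.80). The summed level of that list was 5.84 to 37.0 in KODam_HetFetus and 68.7 to 103 in HetDam_HetFetus livers. No kidney marker of 8 reached the minimum. In the fetal knockout comparison 1 stomach and intestine marker was lower and no other marker was called, where 0.796% of all genes were called lower. In the Cpt2 comparison none was called with limma, where 0 genes of the whole table were.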
